A study of Zea mays with 8 samples.

Results

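MADS-box genes encode transcription factors that share a conserved DNA-binding domain, and many of them set the identity of floral meristems and floral organs. They bind DNA as dimers or larger complexes, so the set of members present in a tissue fixes which complexes can form. In grasses, as in other flowering plants, members of the SVP and SOC1 clades are known from leaves and vegetative shoot tips. Members of the B, C, SEPALLATA and AGL6 classes are known mainly from inflorescences and flowers. The members described here are the probe sets whose annotated symbol or synonym is m, zmm or zag followed by a number only. The rule found 30 probe sets of 26 genes, among 17621 probe sets that are not array controls; 1452 of those carry 1 annotated gene, for 1108 genes in all. Of the 26 genes, 24 were in the RefSeq gene table used for synonyms. The other 2, M7 and M8, were taken by symbol alone. The same 2 symbols are also synonyms of m6 and of zmm8/zmm14, which have other gene numbers. Whether the M7 and M8 entries are those MADS-box genes is not stated, so no role is given for them.

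The samples were the above-ground parts of maize seedlings in the B73 inbred background, cut 11 days after planting with their meristems included. DpDf (duplicate-deficient) seedlings, 4 pools of 12 plants, have a translocated chromosome from T5-6b in place of 1 chromosome 6, which adds a further dose of nearly all of 5S and removes the terminal piece of the 6S satellite. Wild-type siblings, 4 pools of 12 plants, came from the same self-pollinated DpDf parents and were sorted by a chromosome 5 marker. A DpDf and a wild-type pool with the same replicate number came from the same set of sibling seeds, and 2 seed sources supplied 2 replicates each. RNA was read on an Affymetrix maize array, and the deposited values are linear intensities, 1 per probe set and pool. In whole shoots, fewer cells of a type and less RNA per cell cannot be told apart.

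The arrays had similar medians, between 135.9 and 142.4. All 7 green-shoot genes on the marker list were above the 30th percentile in wild type, among them SSu (the small subunit of Rubisco), Cab-m7 (a light-harvesting protein) and the C4 enzyme gene Ppdk1. The meristem markers kn1 and lg3 were above it too. Of 9 kernel genes, 3 were above it (sh1, bt2 and zp27, the last by 1 of its 3 probe sets), and the others, such as ole1, glb1 and o2, were below it. Of the flower and tassel markers, ts2 was above it and si1 was below it in wild type. No root marker on the list was matched to a probe set. The summed kernel signal was 2679 to 3492 in DpDf pools, against 3085 to 4162 in wild-type pools. Most of it came from 1 probe set of sh1, at 1801 to 2398 in DpDf and 2010 to 2718 in wild type. The 3' minus 5' log2 difference of 5 control transcripts, a measure of RNA quality, was 1.20 ± 0.23 in DpDf pools and 0.91 ± 0.13 in wild-type pools (SD, n = 4 each). It was highest in DpDf replicate 1, at 1.52, and it is used as a covariate in some fits below.

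The first question was which members were measurable in wild-type shoots. A member was counted as above the limit if its mean wild-type log2 intensity reached the 30th percentile of all probe sets, a linear intensity of 27.01. Of the 30 member probe sets, 6 were above this limit and 24 below it, so 20% of them were above. Among the 1422 other probe sets with 1 annotated gene, 76.7% were above. The 6 probe sets belong to 6 genes: m19, m20, m21, m26, m5 and m6. Detection calls were not used here, so a probe set below the limit has a low signal, which does not show that its transcript is absent. Intensities of different probe sets do not rank the genes by expression.

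**Figure D1:**
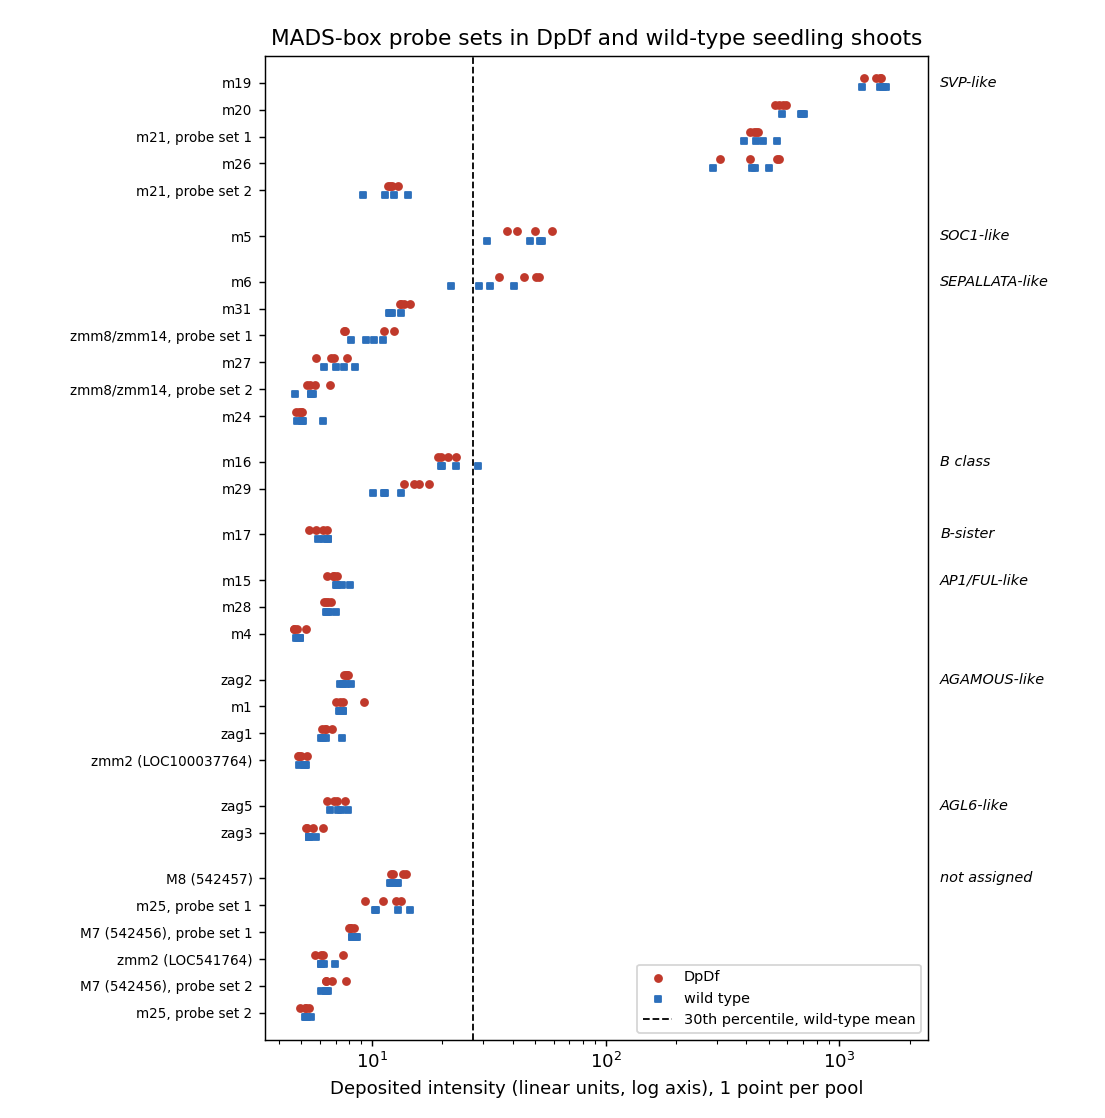
Deposited intensity (linear units on a log axis) of the 30 member probe sets, grouped by clade, with 1 point per pool: DpDf above, wild type below. The dashed line is the 30th percentile of the wild-type mean, 27.01. m19, m20, m26, m5 and 1 of the probe sets of m21 lie to the right of it in every pool and m6 in all but wild-type replicate 1; the rest lie to the left apart from 1 wild-type pool of m16.

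The 4 SVP-like genes, m21 by 1 of its 2 probe sets, were above the limit in every pool. These genes belong to the clade of the SVP gene, a repressor of flowering in Arabidopsis. m19 (LOC542033, chromosome 4) is tunicate1, whose dominant mutant allele encloses each kernel in leafy glumes. In order of replicate number, its intensities were 1501, 1273, 1499 and 1440 in DpDf pools, against 1253, 1486, 1538 and 1590 in wild-type pools, and the same order is kept for every gene. The groups overlapped, and the wild-type mean was 54.1 times the limit. m20 (LOC542034, chromosome 1) had 576, 528.9, 553 and 588.9 in DpDf pools, against 566.6, 687.9, 705.2 and 691 in wild-type pools. DpDf pools were below wild-type replicates 2 to 4, and only wild-type replicate 1 fell among them. m21 (LOC542035, chromosome 9) had 449, 415.2, 433 and 438 in DpDf pools, against 389.3, 441.9, 539.7 and 470.8 in wild-type pools. The DpDf values lay inside the wider wild-type range. A second m21 probe set was below the limit on all arrays, at 11.7 to 12.9 in DpDf and 9.21 to 14.3 in wild type, so the 2 probe sets of this gene disagreed on whether it was measurable. m26 (LOC542044, chromosome 5) had 413.4, 307.6, 542.7 and 552.9 in DpDf pools, against 289.5, 422.4, 436.1 and 501.7 in wild-type pools, with groups that overlapped over most of their range.

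Beyond the SVP-like genes, 1 SOC1-like and 1 SEPALLATA-like gene were above the limit, both close to it. m5 (LOC542042, chromosome 9) carries the synonym SOC1, after the Arabidopsis promoter of flowering. It had 37.77, 41.62, 58.87 and 49.72 in DpDf pools, against 31.03, 47.66, 53.32 and 52.34 in wild-type pools. All 8 values were above 27.01 and the groups overlapped. m6 (LOC542043, chromosome 1, also zmm6 and zmm7) is a SEPALLATA-like gene, of the class whose proteins join other floral MADS-box proteins in complexes. Its intensities were 35.1, 44.59, 50.21 and 52.1 in DpDf pools, against 21.8, 28.87, 32.11 and 40.55 in wild-type pools. Wild-type replicate 1 was below the limit, and m6 had the lowest wild-type mean of the 6, at 1.11 times the limit. The highest member mean below the limit was that of m16, at 0.835 times the limit in wild type, followed by M8 at 0.461 times.

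The 24 probe sets below the limit held nearly all members of the floral classes. None of the 3 AP1/FUL-like genes, m4, m15 and m28, was above the limit; genes of this clade mark the transition to flowering in grasses. Their intensities ran from 4.64 to 7.13 in DpDf and from 4.73 to 8.04 in wild type. The AGAMOUS-like genes zag1, zag2, m1 and zmm2 (LOC100037764), known for stamens, carpels and ovules, read 4.85 to 9.22 in DpDf and 4.91 to 8.13 in wild type. The AGL6-like genes zag3, known as bearded-ear, and zag5 read 5.24 to 7.69 in DpDf and 5.38 to 7.92 in wild type. Of the 5 SEPALLATA-like genes, m24, m27, m31 and zmm8/zmm14 were below the limit and m6 above it. Also below it were the B-class genes m16 (sterile tassel silky ear1) and m29, the B-sister gene m17, and m25, zmm2 (LOC541764), M7 and M8, to which no class is assigned here.

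The second question was whether these levels differed between DpDf and wild type. DpDf joins the added 5S dose with the loss of the 6S piece, and their effects cannot be told apart here. None of the 6 tested members passed the threshold in limma, an adjusted p of 0.05 over all 12335 probe sets at or above the 30th percentile of the 8-array mean. Of all tested probe sets, 4.87% passed. Without adjustment, 2 of the 6 had a p under 0.05, m6 and m20, beside 17% of all tested probe sets. The median difference of the 6, DpDf minus wild type, was 0.0018 on the log2 scale, against -0.023 over all tested probe sets. In all 6, the DpDf and wild-type pools overlapped, while 11.3% of all tested probe sets had groups that did not.

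m6 was higher in DpDf in each of the 4 pairs. The pair differences, DpDf minus wild type on the log2 scale, were 0.69, 0.63, 0.64 and 0.36 for replicates 1 to 4. Of all tested probe sets, 15% were higher in all 4 pairs. The group means were log2 values of 5.49 ± 0.26 in DpDf and 4.91 ± 0.37 in wild type (SD, n = 4 each). They differed by 0.58 (SE 0.19, 95% interval 0.15 to 1.02), a 1.50-fold ratio, with an adjusted p of 0.156 in limma. With the replicate number as a block, which compares pools within pairs, the same difference had an SE of 0.096, an interval of 0.36 to 0.80 and a limma adjusted p of 0.00715. It was then the only member called, in a fit that called 10.2% of all tested probe sets. m6 lies on chromosome 1, outside the duplicated segment. The block fit also called m6 without pair 1 (0.54, adjusted p = 0.0150, beside 9.42% of all tested probe sets) and without pair 2 (0.56, adjusted p = 0.0349, beside 8.02%). With the 3' minus 5' measure added to the block, the difference was 0.50 and did not pass (limma adjusted p = 0.112). With this measure and no block, m6 differed by 0.74 and did not pass either (limma adjusted p = 0.279).

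m20 was lower in DpDf in 3 of the 4 pairs. The pair differences were 0.024, -0.38, -0.35 and -0.23 for replicates 1 to 4, so pair 1 stood apart. The means were log2 values of 9.13 ± 0.068 in DpDf and 9.37 ± 0.15 in wild type (SD, n = 4 each). The difference was -0.23 (SE 0.082, 95% interval -0.42 to -0.050), a ratio of 0.850. Its limma adjusted p was 0.176 for genotype alone and 0.0976 in the blocked fit. Leaving out wild-type replicate 1 gave -0.31 with a limma adjusted p of 0.0293, in a fit that called 4.94% of all tested probe sets. Without pair 1 the block fit gave -0.32 (limma adjusted p = 0.0213), and without pair 2 it gave -0.19 (limma adjusted p = 0.235). With the 3' minus 5' measure added to the block, the difference over all 8 pools was -0.41 (limma adjusted p = 0.0407), in a fit that called 5.81% of all tested probe sets. With this measure and no block, m20 differed by -0.28 and did not pass (limma adjusted p = 0.393).

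**Figure D2:**
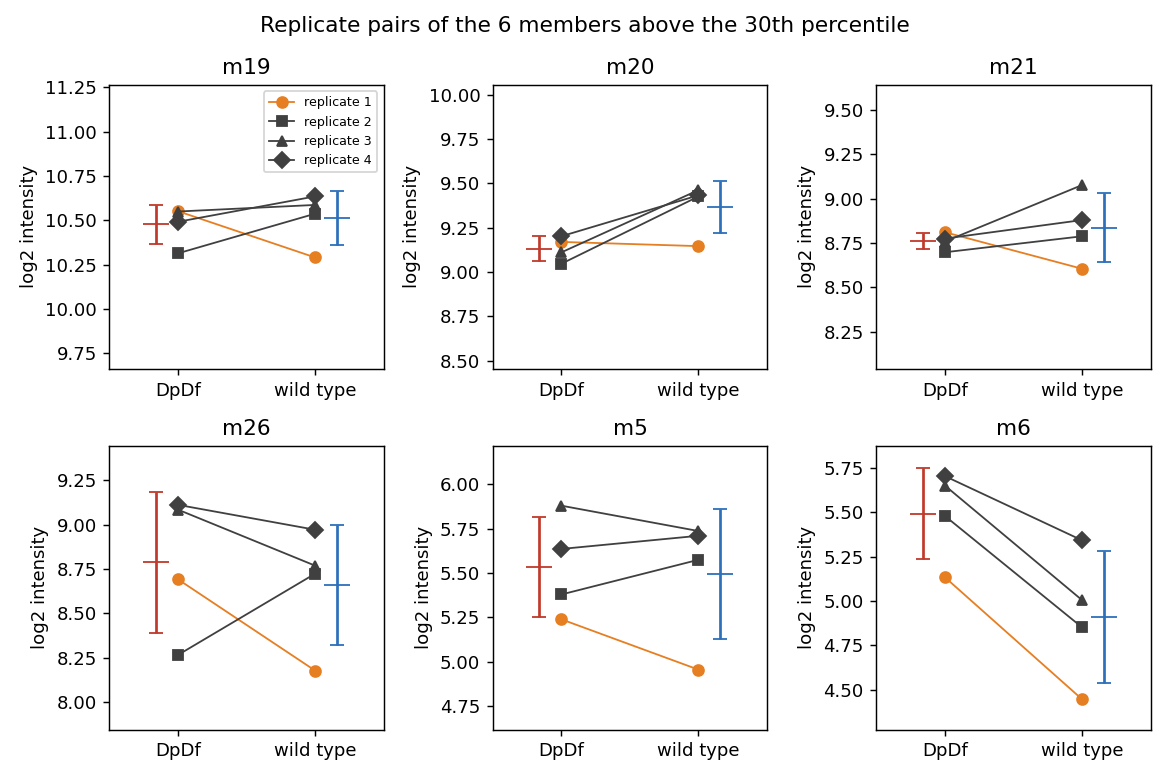
Log2 intensity of the 6 members above the 30th percentile, with DpDf on the left and wild type on the right of each panel. Lines join pools of the same replicate number (replicate 1 in orange), and bars are the mean ± SD of 4 pools. All 4 lines of m6 are higher in DpDf, 3 of 4 lines of m20 are lower in DpDf, and wild-type replicate 1 is the lowest wild-type pool in every panel.

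For genotype alone, the other 4 tested members had intervals that held 0. m19 differed by -0.036 (95% interval -0.23 to 0.16) and m21 by -0.077 (95% interval -0.29 to 0.14) on the log2 scale. Each was lower in DpDf in 3 of 4 pairs and higher in pair 1, by 0.26 for m19 and 0.21 for m21. m26 differed by 0.13 (95% interval -0.35 to 0.61), with pair differences of 0.51, -0.46, 0.32 and 0.14. m5 differed by 0.039 (95% interval -0.40 to 0.48) and was higher in DpDf in 2 of 4 pairs. Adjusted p for these 4 ran from 0.742 to 0.948 in limma. With the replicate block the interval of m26 was -0.19 to 0.45. In the fit with the block and the 3' minus 5' measure, all 4 estimates were negative. m19 then differed by -0.24 (95% interval -0.44 to -0.049) and m21 by -0.26 (95% interval -0.50 to -0.017), both further from 0 than for genotype alone but not past the threshold (limma adjusted p = 0.171 and 0.245). In that fit m26 and m5 were at -0.15 and -0.14, opposite in sign to the values above. With the 3' minus 5' measure and no block, m26 and m5 stayed positive, at 0.22 and 0.21. m19 and m21 were then at -0.077 and -0.084.

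**Figure D3:**
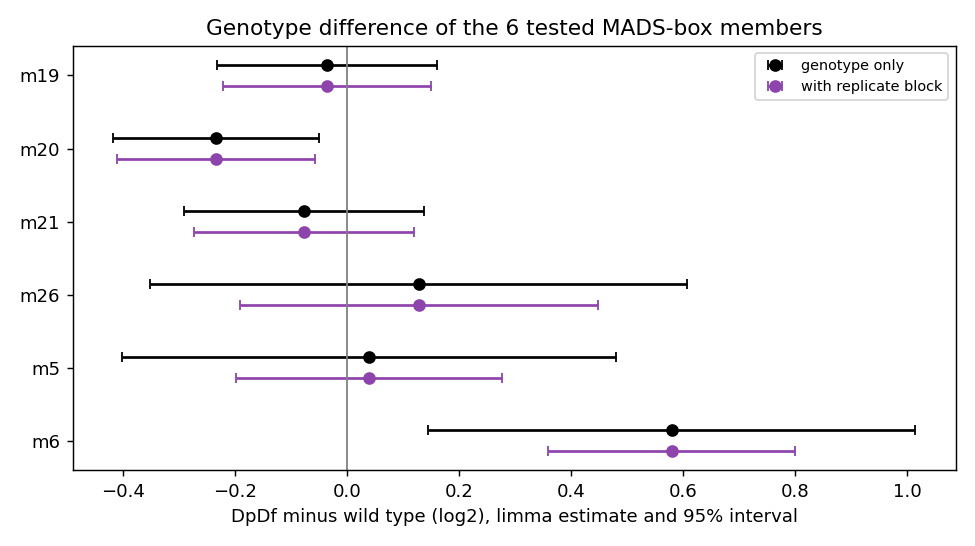
Difference between DpDf and wild type (log2) of the 6 tested members, as the limma estimate with its 95% interval, for the fit with genotype only (black) and with the replicate block (purple). The interval of m6 lies above 0 and that of m20 below 0 in both fits, and the other 4 hold 0; intervals are not adjusted for the number of probe sets.

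Wild-type replicate 1 had the lowest wild-type value for all 6 tested members. Over all tested probe sets, it was the lowest of the 4 wild-type pools in 29.9%. In DpDf, replicate 2 was the lowest of 4 for 4 of the 6 members and replicate 1 for the other 2, m5 and m6. Replicate 2 was the lowest DpDf pool in 24.5% of all tested probe sets. Without wild-type replicate 1, the difference of m6 was 0.43 (limma adjusted p = 0.252) and those of m26 and m5 turned negative, at -0.033 and -0.14. Without this pool, m19 and m21 differed by -0.11 and -0.15. By seed source, the mean pair differences of m19, m26 and m5 were positive in the source of replicates 1 and 3, at 0.11, 0.41 and 0.21, and negative in that of replicates 2 and 4, at -0.18, -0.16 and -0.13. The difference between sources was not significant for any of the 6 members (limma interaction, adjusted p = 0.9996 for each, unadjusted p from 0.109 to 0.849). m6 was higher in DpDf in both sources, by 0.67 and 0.49, and m20 differed by -0.16 and -0.30.

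Among the 24 probe sets below the limit, m29 alone had DpDf and wild-type pools that did not overlap. m29 (LOC542020, chromosome 8, also zmm29) is a B-class gene related to PISTILLATA, which specifies stamens and the inner perianth organs. It read 17.54, 13.7, 15.9 and 15.23 in DpDf pools, against 11.36, 11.23, 13.29 and 10.16 in wild-type pools. Every value was under 27.01, and how far background limits these sizes was not tested. DpDf was higher in all 4 pairs, by 0.63, 0.29, 0.26 and 0.58 on the log2 scale. Of all probe sets below the filter, 3.18% had groups that did not overlap and 5.98% were higher in all 4 pairs. In a fit of all 17621 probe sets without a filter, the difference of m29 was 0.44 (SE 0.10), just short of the threshold (limma adjusted p = 0.0544). Blocking by replicate brought its limma adjusted p to 0.0357. These fits called 3.11% and 5.59% of all probe sets. The other 23 probe sets below the limit had mean differences from -0.13 to 0.15, each within 0.2 of 0. Their pairs were mixed in direction, apart from m28 and 1 probe set of M7, which were lower in DpDf in all 4 pairs by at most 0.073 on the log2 scale, beside 12.2% of all probe sets below the filter; m29 was the only one of the 24 higher in all 4.

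**Figure D4:**
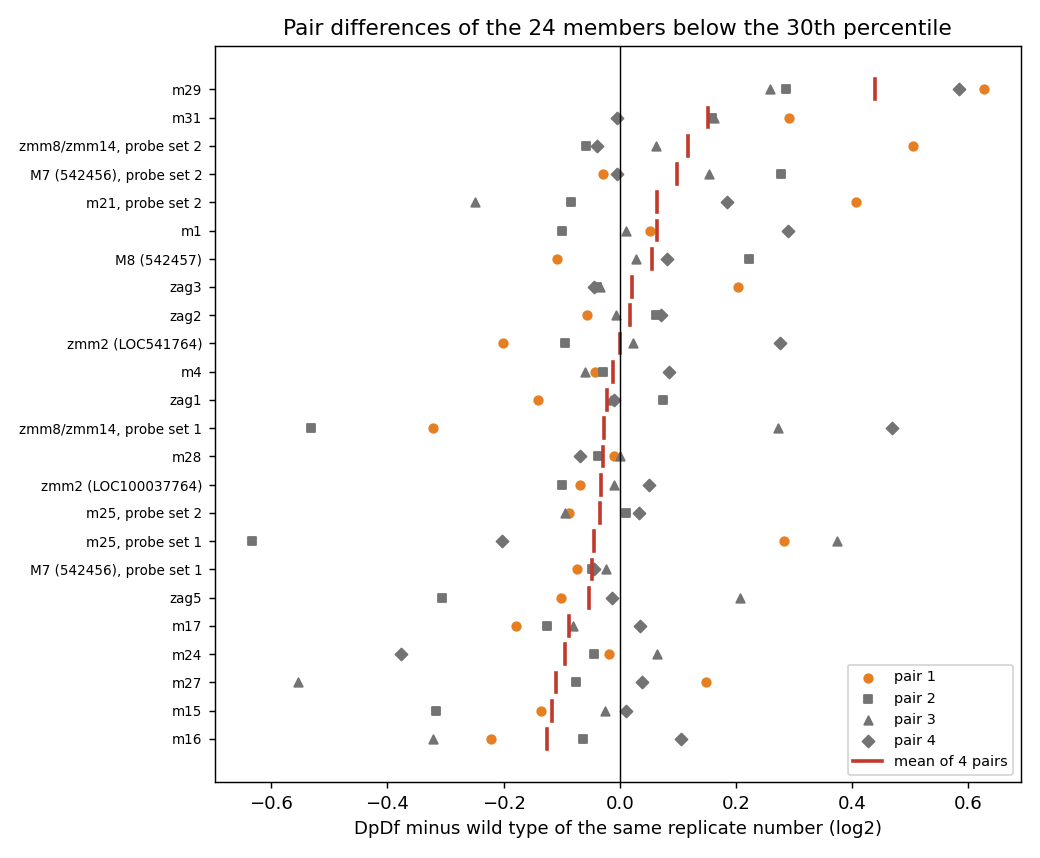
Pair differences (DpDf minus wild type of the same replicate number, log2) of the 24 members below the 30th percentile, with pair 1 in orange and the mean of 4 pairs as a red bar. All 4 pairs of m29 lie to the right of 0, and the means of the other 23 lie between -0.13 and 0.15.

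On chromosome 5 lie 6 member genes, and m15 and m31 come before RPL19 in gene order, the gene taken as the inner boundary of the duplicated segment. Neither was above the limit. m15, an AP1/FUL-like gene, read 6.801, 6.456, 6.908 and 7.13 in DpDf pools, against 7.473, 8.038, 7.031 and 7.078 in wild-type pools. m31, a SEPALLATA-like gene, read 14.64, 13.67, 13.23 and 13.27 in DpDf pools, against 11.97, 12.25, 11.82 and 13.31 in wild-type pools, and was higher in DpDf in 3 of 4 pairs. Without a filter, m15 differed by -0.12 and m31 by 0.15 (limma adjusted p = 0.420 and 0.348), against 0.58 for a ratio of 3 copies to 2. In that fit the limma intervals ran from -0.25 to 0.014 for m15 and from 0.0040 to 0.30 for m31, so neither reached 0.58. How far background limits differences at signals this low was not tested, so no copy effect is read from these values. m17, m26, zag3 and zmm2 (LOC541764) come after RPL19.

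MADS-box genes whose names fall outside the rule, and other genes of flowering time and inflorescence meristems, were read from a list of symbols. It matched 13 genes on 17 probe sets, of which 7 genes were tested. Of these, 5 were above the limit in wild type, with differences from -0.53 to 0.15. None of these 5 passed the limma threshold, where 4.87% of all tested probe sets did. Among them only ub2 had an unadjusted p under 0.05 in limma, beside 17% of all tested probe sets. si1 (silky1), an APETALA3-like B-class gene, is a MADS-box gene too. It read 25.87, 30.87, 46.55 and 36.57 in DpDf pools, against 15.32, 28.79, 29.86 and 28.01 in wild-type pools. Its wild-type mean of 24.6 is below the limit, so it entered the test only through its DpDf level and had to differ in that direction. The same holds for id1, a zinc-finger gene needed for the transition to flowering, with a wild-type mean of 25.1, and no test is read for either gene. zap1, an AP1-like MADS-box gene, read 11.2 to 12.5 in DpDf and 9.42 to 11.6 in wild type, below the limit.

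Of the flowering genes with the smallest p, ub2, an SBP-box gene of inflorescence branching, differed by -0.35 (limma adjusted p = 0.183). The meristem genes kn1 and lg3 differed by -0.29 and -0.53 (limma adjusted p = 0.362 and 0.363). Blocking by replicate took both past the threshold, as lower in DpDf (adjusted p = 0.0387 and 0.0492), in the same fit that called m6 higher and 10.2% of all tested probe sets. With the 3' minus 5' measure as a covariate and no block, kn1 differed by -0.087 and lg3 by -0.36 (limma adjusted p = 0.972 and 0.914). kn1 was lower in DpDf in each of the 4 pairs, at 142.7, 203.9, 198.7 and 204.6 in DpDf pools, against 182.3, 221.4, 269.8 and 245.2 in wild-type pools. lg3 had 67.62, 77.56, 97.39 and 89.29 in DpDf pools, against 66.8, 109.1, 165.3 and 162.5 in wild-type pools, and overlapped through replicate 1 of wild type. ub2 had 84.3, 64.3, 82.35 and 73.93 in DpDf pools, against 106.6, 92.27, 80.57 and 109.8 in wild-type pools, so that the groups overlapped. The summed kn1 and lg3 signal was 210.3 to 296.1 in DpDf pools, against 249.1 to 435.1 in wild-type pools. Of the green-shoot markers, the 10 tested probe sets belonged to 7 genes, several of them to Ppdk1. Their median difference was 0.12, against -0.023 over all tested probe sets. None of the 10 passed for genotype alone, and psad1, a photosystem I subunit gene, passed in the blocked fit (0.47, limma adjusted p = 0.00466). With the 3' minus 5' covariate and no block, psad1 differed by 0.31 (limma adjusted p = 0.771). In that fit the estimates of some markers, Ppdk1 probe sets among them, turned negative, while others stayed positive. The summed green-shoot signal was 75093 to 89781 in DpDf pools, against 63252 to 81915 in wild-type pools. The part of these shifts in the m6, kn1 and lg3 differences was not tested.

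The genes with profiles most like those of m6 and m20 were taken by Pearson's r of log2 intensity over the 8 arrays, among 918 other annotated genes. For m6 they were LOC541918 (r = 0.96, Spearman's rho = 0.98), spr9 (r = 0.91, rho = 0.88) and GRF5, a growth-regulating factor (r = 0.91, rho = 0.74). For m20 they were adh1, encoding alcohol dehydrogenase (r = 0.93, rho = 0.88), LOC542763 (r = 0.93, rho = 0.93) and hp2 (r = 0.90, rho = 0.83). Without the 2 arrays farthest from each gene's median, r was 0.72 to 0.86 for the first 3 genes and 0.78 to 0.92 for the last 3. These are the highest of 918 values over arrays that also share replicate pairs, and they are given as a description.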

How the data were processed

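The deposited values are linear intensity, 1 per probe set and array. MAS5 is named, per the submitters' processing notes, without a version or role, and how arrays were scaled is not stated there. Among 17734 probe sets, 113 array controls were left out. Symbols came from the platform annotation, and synonyms, chromosome and gene order from a RefSeq table of Zm-B73-REFERENCE-NAM-5.0; clade names are background knowledge. Values were taken to log2 with no pseudocount. Probe sets under the 30th percentile of the 8-array mean were not tested. DpDf was compared with wild type with limma 3.58.1 in R 4.3.3 (lmFit, eBayes with trend, genotype only, Benjamini-Hochberg over 12335 probe sets). This fit was also run on simulated data with independent noise in each array, so the replicate pairing was not simulated. The fits with a block or covariate were not run on simulated data. The number of arrays limits the precision. Low signals varied little between wild-type arrays (median SD 0.097 below the limit, 0.13 above, log2).

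Pools with the same number came from 1 set of sibling seeds, per the labels' protocols. Their deviations from the group means correlated at r = 0.36, 0.51, 0.56 and 0.33 for replicates 1 to 4. The highest r with another number was 0.20, 0.20, 0.31 and 0.31, so the margin was small for replicate 4. The main fit left the pairing out, and the block was an alternative. Members and lists were chosen with earlier results of these data known. Every member is named, those above the limit with each pool's value; m29, m15, m31, si1 and psad1 were singled out after their values or positions were seen. Of the flowering list, the genes past a threshold and the 4 with the smallest p are named (id1 without its test). The profile rule takes the 3 most similar genes. Matched symbols of other genes (Ct2, GT1, GLB1) were removed.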

Additional observations from a re-analysis of the deposited data

Results flagged for a closer look

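Of 60 groups of 4 pools (30 probe sets in both genotypes), 3 held a pool far from the other 3, by Dixon's test at the 95% level; chance gives about 1 in 20. The m20 intensity of wild-type replicate 1 was 566.6, against 687.9, 691 and 705.2 in the other wild-type pools. The other 2 lie far below the 30th percentile. zag3 read 5.776 in wild-type replicate 4, against 5.379 to 5.391 in the other pools. One of the probe sets of zmm8/zmm14 read 4.69 in wild-type replicate 1, against 5.488 to 5.579.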

How the results depend on the processing

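The count of all probe sets called was 601; it was 1253 with the replicate block, 337 with the 3' minus 5' covariate and 393 to 646 when each pool was left out, the lowest without wild-type replicate 4. Of the members, 0 were called for genotype alone and 0 to 1 over the left-out pools (m20 without wild-type replicate 1), and 1 with the replicate block (m6). With the 3' minus 5' covariate and no block, 0 were called. In fits added after seeing the data, the block called 2 with no filter (m6, m29), 2 without pair 1 (m6, m20), 1 without pair 2 (m6) and 1 with the 3' minus 5' covariate (m20). Of the flowering list 0 were called, 2 with the replicate block (kn1, lg3) and 0 to 1 over the left-out pools. m6 was 0.43 to 0.72 with a pool left out (adjusted p 0.0827 to 0.294) and 0.58 with the block (adjusted p 0.00715; 0.0134 with no filter), and m20 -0.31 to -0.20 (adjusted p 0.0293 to 0.386). The added fits gave m6 0.54 and 0.56 with the block without pairs 1 and 2, and m20 -0.32 without pair 1, -0.19 without pair 2 (adjusted p 0.235) and -0.41 with the block and the 3' minus 5' covariate. Over the left-out pools, m19 ran from -0.11 to 0.019, m21 from -0.15 to 0.0032, m26 from -0.033 to 0.30 and m5 from -0.14 to 0.14; without pair 2 m19 was 0.027, without pair 1 m26 was -0.00062 and m5 -0.042, and with the block and the covariate m26 was -0.15 and m5 -0.14 (m19 -0.24, m21 -0.26). The cause of these changes of sign was not tested. No member changed sign in the fit with the covariate and no block, where m6 was 0.74, m20 -0.28, m26 0.22 and m5 0.21. Quantile normalization, median centring, a pseudocount of 16 and eBayes without trend changed no member's direction or call, and m5 and m6 had no value with the filter at the 50th percentile. The count of members above the limit was 6, 12 at the 20th percentile, 4 at the 40th and at the 50th, and 5 where all 4 wild-type arrays had to pass. Low signal limits the 24 others.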
